A study of Homo sapiens with 32 samples.

Results

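The comparison described here set 2 ZR-75-1 tumors taken after 14 days of tamoxifen against 8 tumors taken after 4 or 7 days, to separate the genes that moved only in the second week from those that carried an earlier change further. The 10 tumors came from 8 mice and were read on 19 arrays, out of 16 tumors, 12 mice and 32 arrays in the whole study. Day 14 gave 2 tumors from 2 mice, day 4 gave 4 tumors from 3 mice and day 7 gave 4 tumors from 3 mice. Tumors whose labels carry the same animal number were taken as 1 mouse. The label of the dye-swap array of day 14 replicate 1 names the animal but no flank. It was taken as the same tumor as the forward array, which is labelled left. A further 6 tumors of days 1 and 2, from 4 mice, entered no group of this comparison. They served as an earlier reading and entered the estimate of spread that all 16 tumors share.

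ZR-75-1 is an estrogen receptor positive human breast cancer line. It was grown as xenografts in the flanks of female nu/nu mice that carried a slow-release estradiol (E2) pellet from the day of implantation. From day 0 the treated animals also received a tamoxifen pellet (2.5 mg released over 60 days), so every tumor described here was exposed to E2 and to tamoxifen, and the groups differed in the day of collection. Each tumor was hybridized against a single pool of RNA from tumors of mice that received E2 alone, taken between day 0 and day 4, once in each dye orientation. A value is the log2 ratio of the tumor over that pool, averaged over both orientations, except that day 4 replicate 3 kept only the forward array. The pool cancels when day 14 is compared with days 4 and 7. No control tumor of day 7 or day 14 entered the pool, so a change with tamoxifen and a change with the age of the tumor cannot be told apart. In tumor RNA, fewer cells of a type and less RNA per cell cannot be told apart either.

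The scanner files do not name the dyes, and the channel numbers of the labels, read literally, would reverse every sign. The direction used here is the likely one: it is the direction of the authors' own value table and of the decreases and increases that the study names. Under the opposite reading every rise below would be a fall. An array labelled as the dye swap of day 4 replicate 4 was left out, because after its sign was turned it correlated at -0.876 across probes with the forward array of day 4 replicate 2. Gene names were available for 333 of 9912 probes (253 symbols), and 9579 probes remained unnamed. The names come from a list of responding genes that the study drew from these same arrays, in 6 sets, so a high share of changed genes among the named probes is no independent evidence of change.

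Estrogen drives luminal breast cancer cells through its receptor, which binds DNA and switches on genes of growth and secretion and, through cyclins and E2F factors, genes of DNA synthesis and mitosis. Tamoxifen occupies the receptor without fully activating it, so that growth slows and estrogen-induced transcripts decline. Some genes are held down by estrogen and are released when its action is blocked. The genes below are given in this order: products that rose in the second week, genes of the estrogen response that fell, and genes of the cell cycle that fell. Of the 6 named genes that rose, 1 (PSCA) was in the list of estrogen-repressed genes used here. Whether the rises are a release from estrogen was not tested.

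Between days 4 and 7 on the one side and day 14 on the other, 15 probes rose and 7 fell at an adjusted p under 0.05 (limma, Benjamini-Hochberg over 9912 probes). These are 0.151% of probes called higher and 0.0706% called lower. Without adjustment, 1134 probes had a p under 0.05. Of the named probes 7 rose and 5 fell, and counted by the brightest probe of each gene 6 genes rose (PSCA, PIP, FOXJ1, MUC1, CAPS and UNG2) and 4 fell (GFRA1, MAPT, PRC1 and RRM2). For each of the 22 probes both day 14 tumors lay outside the range of all 8 earlier tumors, which was true of 5.39% of all probes above that range and 4.78% below it. Without day 14 replicate 2 the count was 1 probe, that of PSCA, and without day 14 replicate 1 it was 16, of which 11 were among the 22. Leaving out day 7 replicate 2 raised the count to 74 probes.

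**Figure D1:**
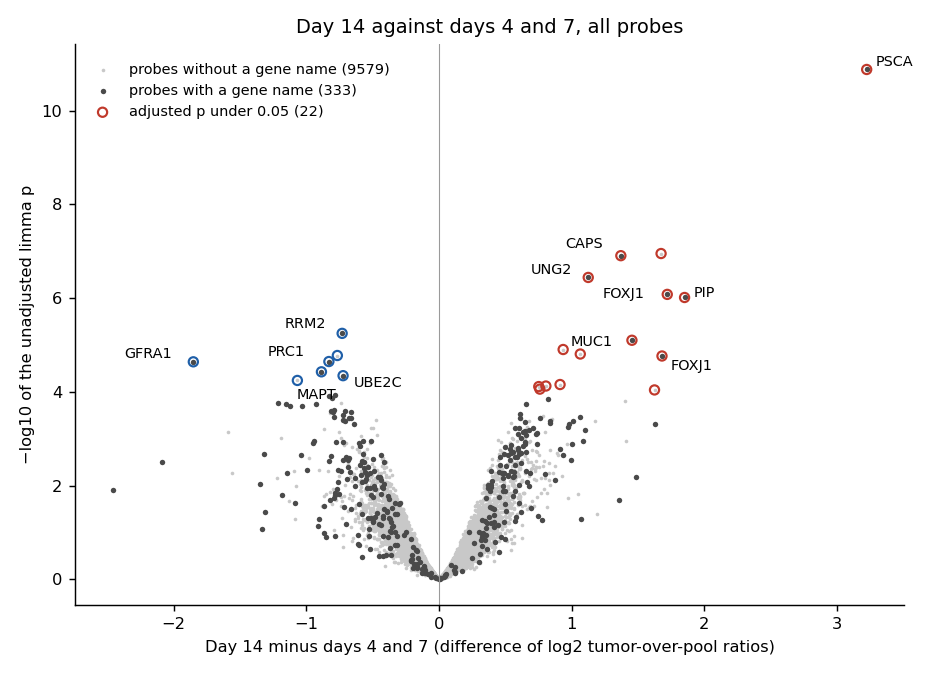
Difference between day 14 and days 4 and 7 for each of 9912 probes (x axis, difference of log2 tumor-over-pool ratios) against the -log10 of its unadjusted limma p (y axis), with the 333 named probes in dark gray and rings around the 22 probes at an adjusted p under 0.05. PSCA stands apart at 3.22, and the lowest ringed value is that of GFRA1 at -1.85.

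Days 4 and 7 were averaged, and the difference between them was read beside it. No probe of 9912 differed between them at an adjusted p under 0.05 (0% called higher and 0% called lower), while 519 had an unadjusted p under 0.05. With 4 tumors a day this does not show that the days were alike. Compared with day 7 alone, 8 probes were higher at day 14 (0.0807%) and none was lower, with 753 probes at an unadjusted p under 0.05. Compared with day 4 alone, 20 were higher (0.202%) and 16 lower (0.161%), so that falls were called against day 4 and not against day 7. These counts share the day 14 tumors and are not independent of each other.

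To ask whether a change was already there, the same fit gave the mean of days 4 and 7 against the pool, in which 193 probes were higher (1.95%) and 262 lower (2.64%), and the mean of days 1 and 2 against the pool, in which 373 were higher (3.76%) and 494 lower (4.98%). The comparison of day 14 with days 4 and 7 shares its 8 earlier tumors with the first of these, and no group tumor with the second. All share the estimate of spread over 16 tumors. Among the 22 probes, 12 had no call against the pool at either earlier reading and are referred to as changed in the second week only (10 higher, 2 lower). A further 6 were called in the same direction at days 4 and 7 and continued an earlier change (3 higher, 3 lower). Another 3 were called in the same direction at days 1 and 2 but not at days 4 and 7 (1 higher, 2 lower), and 1, MUC1, was called in the opposite direction earlier. Of the 12 second-week probes, 11 had a 95% confidence interval of the mean of days 4 and 7 that lay within 1.5-fold of the pool and for the other, an unnamed probe, the interval reached beyond it.

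**Figure D2:**
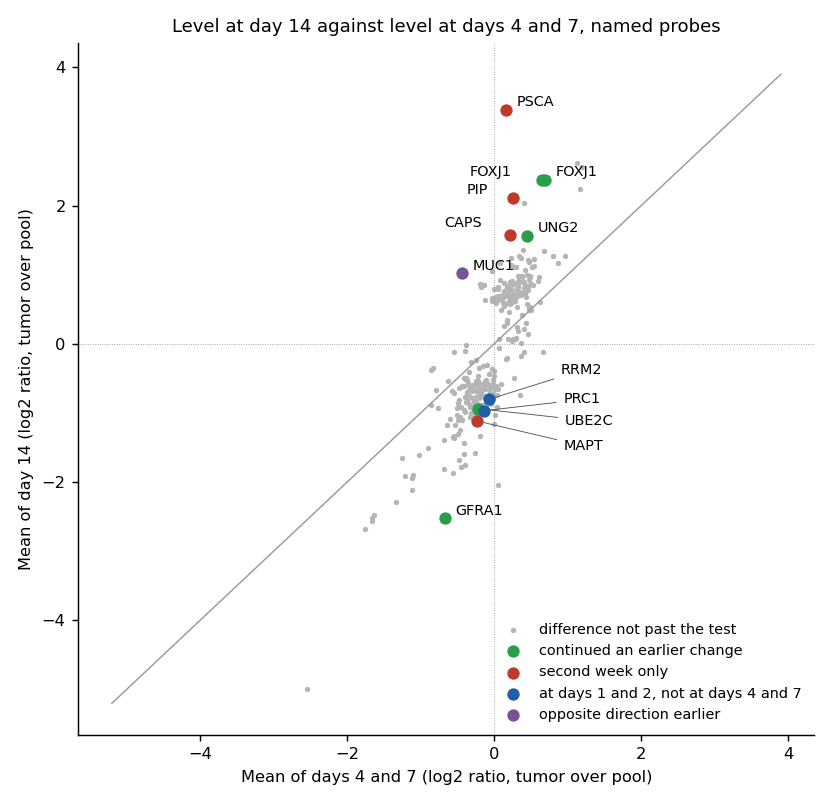
Mean log2 ratio over the pool at day 14 (y axis) against the mean at days 4 and 7 (x axis) for the 333 named probes. The line marks equal levels. PSCA, PIP, CAPS and MAPT had no call earlier, GFRA1, FOXJ1, UNG2 and a probe of UBE2C lay on the same side of the pool before, PRC1 and RRM2 had been lower at days 1 and 2, and MUC1 moved from -0.44 to 1.02.

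PSCA encodes prostate stem cell antigen, a small lipid-anchored protein of the cell surface. It had the largest difference of all probes that passed the test. Its log2 ratio to the pool was 3.11 and 3.67 in the 2 tumors of day 14. In the tumors of day 4 it was 0.40, 0.48, -0.08 and 0.18, and in those of day 7 it was 0.34, 0.31, -0.14 and -0.18. The 8 earlier tumors thus lay around the level of the pool and both late tumors far above it, with no overlap. The difference was 3.22 ± 0.21 (log2, SE), a 9.34-fold rise, with an adjusted p of 1.3e-07 in limma. At days 1 and 2 the values ran from -0.44 to 0.80 with a mean of 0.16, and neither earlier reading passed the test. On the day 14 arrays the tumor channel was 19.9 to 47.4 times its local background, against 2.85 to 9.23 times on the arrays of days 4 and 7, and no spot was saturated. PSCA kept its call under all 27 alternative analyses, and the change was in the second week only under each of the 26 that could class it.

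PIP, the prolactin-induced protein that marks apocrine secretion, was 1.79 and 2.42 at day 14. At day 4 it was 0.13, -0.66, -0.01 and 0.53, and at day 7 it was 0.06, 0.96, 0.65 and 0.38. The earlier tumors scattered on both sides of the pool and the highest of them, day 7 replicate 2, stayed well below the late pair. The difference was 1.85 ± 0.25 (adjusted p = 0.0016), and 1.53 without day 14 replicate 2 (adjusted p = 0.24). The mean of days 4 and 7 was 0.26 with an interval from 0.02 to 0.50 and did not pass the test (adjusted p = 0.21). Against day 7 alone the rise was 1.59 (adjusted p = 0.033).

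Calcyphosine, the calcium-binding protein encoded by CAPS, stood at 1.299 and 1.86 at day 14. Its values were 0.21, 0.34, 0.08 and -0.15 at day 4 and 0.40, 0.41, 0.16 and 0.21 at day 7. Here too the earlier tumors were near the pool, in a narrow band that ended far below the late pair. The difference was 1.37 ± 0.16 (adjusted p = 0.00041), and 1.09 without day 14 replicate 2 (adjusted p = 0.14). The mean of days 4 and 7, at 0.21, did not pass the test (adjusted p = 0.11). By the threshold, CAPS, PSCA and PIP, together with MAPT described below, are the named genes that changed in the second week only. For CAPS and PIP most earlier tumors were already above the pool, so the missing call does not show that they were unchanged before.

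**Figure D3:**
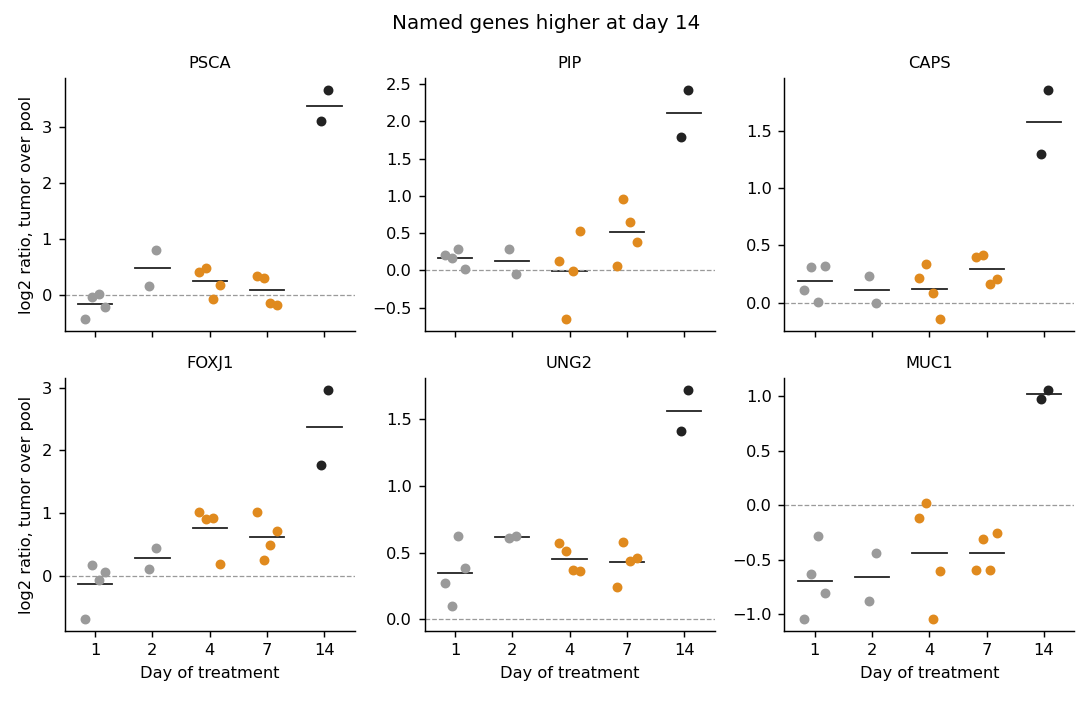
Log2 ratio over the pool (y axes, with separate scales) in each tumor by day of treatment (x axes) for the 6 named genes higher at day 14. Each point is a tumor, horizontal bars are means, and orange marks days 4 and 7. In each panel both day 14 tumors lie above all 8 tumors of days 4 and 7.

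FOXJ1 and UNG2 also rose, from a level that was already above the pool. FOXJ1 is the transcription factor that switches on the genes of motile cilia. Its brightest probe gave 1.77 and 2.97 at day 14, 1.02, 0.91, 0.93 and 0.19 at day 4, and 1.02, 0.25, 0.50 and 0.71 at day 7. All 8 earlier tumors were above the pool, and both late tumors were above all of them. The difference was 1.68 ± 0.29 (adjusted p = 0.014) beside a mean of 0.69 at days 4 and 7 (adjusted p = 0.0044). It was 1.09 without day 14 replicate 2 (adjusted p = 0.49) and 2.28 without day 14 replicate 1 (adjusted p = 0.0054). At days 1 and 2 the mean was 0.08 (adjusted p = 0.83). A second FOXJ1 probe gave 1.84 and 2.91 at day 14 and 0.32 to 1.07 earlier, a difference of 1.72 ± 0.23 (adjusted p = 0.0016), which was 1.19 without day 14 replicate 2 (adjusted p = 0.24).

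The probe named UNG2 stood at 1.41 and 1.72 at day 14, at 0.57, 0.51, 0.37 and 0.36 at day 4, and at 0.24, 0.58, 0.44 and 0.46 at day 7. The earlier values formed a tight group above the pool and the late values lay higher by more than the width of that group. The difference was 1.13 ± 0.14 (adjusted p = 0.0009), and 0.97 without day 14 replicate 2 (adjusted p = 0.23). The earlier means were 0.44 at days 4 and 7 (adjusted p = 0.00075) and 0.48 at days 1 and 2 (adjusted p = 0.0011). The identity of this probe is uncertain. The study pairs the symbol with the gene of cyclin O, a protein needed for the formation of multiciliated cells, whereas RefSeq lists UNG2 as an older name of the uracil DNA glycosylase gene UNG.

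CAPS, FOXJ1 and UNG2, counted as cyclin O, were the only 3 measured members of a list of 13 genes of motile cilia, and 3 of 3 rose. Their median difference was 1.37, beside a median of -0.0020 over all probes. The list was drawn up with earlier results of these data known, and the study chose all named probes on these arrays, so the count is a description and not independent evidence.

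MUC1, a large transmembrane mucin of the luminal cell surface, changed direction. It was 0.98 and 1.06 at day 14. Earlier it was -0.11, 0.02, -1.04 and -0.60 at day 4 and -0.59, -0.30, -0.60 and -0.25 at day 7, below the pool in 7 of 8 tumors. The late pair lay above the pool and above every earlier tumor. The difference was 1.45 ± 0.23 (adjusted p = 0.0098). The call was lost without day 14 replicate 1 (1.497, adjusted p = 0.096) and without day 14 replicate 2 (1.415, adjusted p = 0.3). The earlier means were -0.44 at days 4 and 7 (adjusted p = 0.021) and -0.67 at days 1 and 2 (adjusted p = 0.0033). The rise held against day 7 alone (1.45, adjusted p = 0.034) and against day 4 alone (1.45, adjusted p = 0.02).

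The next 4 genes in the upward direction, by p, did not pass the test. They were RUTBC3 (0.82, adjusted p = 0.056), KIAA0247 (0.66, adjusted p = 0.058), OMA1, a protease of the inner mitochondrial membrane (0.61, adjusted p = 0.071), and WDR45, a protein of autophagy (0.61, adjusted p = 0.073). In each of them both late tumors lay above all 8 earlier ones. For OMA1 the late values were 0.96 and 1.00, and the earlier values ran from 0.07 to 0.55 with a median of 0.39.

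Among the named genes called lower, GFRA1, the receptor subunit that binds the growth factor GDNF and a known estrogen-induced gene of breast cancer cells, had the largest difference. It was -2.34 and -2.71 at day 14. At day 4 it was -1.07, -0.92, -0.20 and -0.74, and at day 7 it was -0.04, -1.71, -0.23 and -0.48. All 8 earlier tumors were below the pool, day 7 replicate 2 the most, and both late tumors were lower still. The difference was -1.85 ± 0.32 (adjusted p = 0.016), a 3.61-fold decrease, after a mean of -0.67 at days 4 and 7 (adjusted p = 0.012). At days 1 and 2 the mean was -0.43 and did not pass the test (adjusted p = 0.15). Against day 7 alone the adjusted p was 0.0503. GFRA1 lost its call in 6 of 27 alternative analyses, among them those with 1 mean per mouse, without day 14 replicate 1 (-2.04, adjusted p = 0.096) and without day 14 replicate 2 (-1.66, adjusted p = 0.44).

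MAPT encodes the microtubule-binding protein tau and is likewise induced by estrogen. It was -1.05 and -1.18 at day 14, -0.23, -0.48, -0.05 and -0.41 at day 4, and 0.11, -0.51, -0.02 and -0.28 at day 7. The earlier tumors were at or below the pool with 1 exception, and the late pair was lower than all of them. The difference was -0.89 ± 0.16 (adjusted p = 0.025). The mean of days 4 and 7 was -0.23 with an interval from -0.38 to -0.08, and 7 of 8 tumors were below the pool, but it did not pass the adjusted test (adjusted p = 0.079). MAPT thus counts as changed in the second week by the threshold, although most earlier tumors were already below the pool. It lost its call in 7 of 27 alternative analyses. Among them were those with 1 mean per mouse, without day 14 replicate 1 (-0.95) and without day 14 replicate 2 (-0.82).

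Over the list of estrogen-induced genes, 23 of 40 were measured, 0 rose and 2 fell (GFRA1 and MAPT). The difference was negative for 22 of 23, with a median of -0.68. Over all 9912 probes it was negative for 4997, with a median of -0.0020. Over the 253 named genes it was negative for 140, with a median of -0.16. The study chose all named probes on these arrays, so the counts of this and the following lists are descriptions and not independent evidence. EGR3, an immediate early transcription factor, followed MAPT by p in this list, at -1.12 (adjusted p = 0.059). It was -1.65 and -1.98 at day 14 and between -1.11 and -0.16 earlier. TFF1 and TFF3, the secreted trefoil factors that are classical estrogen-induced genes, had been well below the pool since days 1 and 2. TFF3 was -1.91 and -1.97 at day 14, against -1.93 to -0.79 at days 4 and 7, so that its late values overlapped the lowest earlier tumor, day 7 replicate 2. Its difference of -0.82 did not pass the test (adjusted p = 0.16), and neither did that of the brightest TFF1 probe at -0.996 (adjusted p = 0.19). CYP1B1, an estrogen-metabolizing cytochrome (-1.21, adjusted p = 0.058), and HSD17B1, which converts estrone to E2 (-1.03, adjusted p = 0.059), also stayed short of the threshold.

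The estrogen-repressed list had 11 measured members of 22, of which 1 rose (PSCA) and 0 fell. The difference was positive for 10 of 11, with a median of 0.55, beside 4915 of all 9912 probes and 113 of the 253 named genes. The next by p was NR3C1, the glucocorticoid receptor, at 0.74 (adjusted p = 0.091), with 0.61 and 0.96 at day 14 and -0.39 to 0.47 earlier. IGFBP5, a secreted binding protein of insulin-like growth factors, was measured by 3 probes. The probe with the smallest p gave 2.82 and 2.41 at day 14, but day 7 replicate 2 already stood at 2.97 and the other 7 earlier tumors between 0.44 and 1.40. Its difference of 1.48 ± 0.48 did not pass the test (adjusted p = 0.21). The brightest IGFBP5 probe gave 2.26 and 2.84 at day 14 and 0.43 to 3.40 earlier, a difference of 1.36 ± 0.53 (adjusted p = 0.315).

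**Figure D4:**
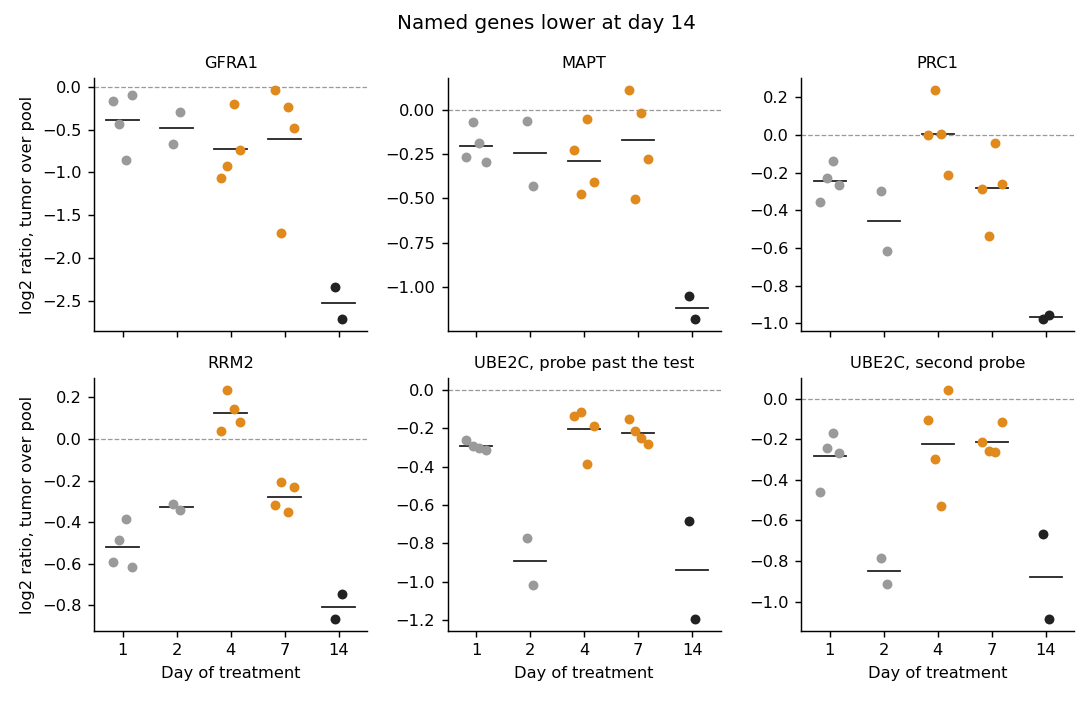
Log2 ratio over the pool (y axes, with separate scales) in each tumor by day of treatment (x axes) for the probes of named genes that were lower at day 14, with a second probe of UBE2C that did not pass the test. Each point is a tumor, horizontal bars are means, and orange marks days 4 and 7. PRC1, RRM2 and UBE2C were below the pool at days 1 and 2, closer to it at day 4 and lower again at day 14.

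Genes of cell division gave the remaining named falls. RRM2 is the small subunit of ribonucleotide reductase, which makes the building blocks of DNA. It was -0.87 and -0.74 at day 14. At day 4 it was 0.04, 0.24, 0.14 and 0.08, above the pool in 4 of 4 tumors, and at day 7 it was -0.32, -0.21, -0.35 and -0.23, below the pool in 4 of 4. The late pair was lower than all of these. The difference was -0.73 ± 0.11 (adjusted p = 0.008). It missed the threshold without day 14 replicate 1 (-0.67, adjusted p = 0.17) and without day 14 replicate 2 (-0.79, adjusted p = 0.23). The gene had been lower at days 1 and 2 as well (-0.42, adjusted p = 0.00053), while the mean of days 4 and 7 was -0.08 (adjusted p = 0.44). The difference between day 7 and day 4, -0.40, did not pass the test (adjusted p = 0.87), and against day 7 alone the fall of 0.53 did not pass it either (adjusted p = 0.17).

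PRC1, which bundles the microtubules of the spindle midzone when cells divide, showed the same order of days. It was -0.98 and -0.96 at day 14, -0.002, 0.24, 0.01 and -0.21 at day 4, and -0.29, -0.54, -0.04 and -0.26 at day 7. Both late tumors lay below all earlier ones. The difference was -0.83 ± 0.14 (adjusted p = 0.016), and the call was lost without day 14 replicate 1 (-0.82, adjusted p = 0.22) and without day 14 replicate 2 (-0.84, adjusted p = 0.37). With 1 mean per mouse the call of PRC1 was lost as well. The mean was -0.35 at days 1 and 2 (adjusted p = 0.011) and -0.14 at days 4 and 7 (adjusted p = 0.25). A dimmer PRC1 probe gave -0.54 and -1.12 at day 14 and -0.64 to 0.04 earlier, so that its groups overlapped.

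UBE2C, the ubiquitin-conjugating enzyme of the anaphase-promoting complex, was measured by 3 probes and passed the test on 1 of them, which was not the brightest. That probe gave -0.68 and -1.20 at day 14 and -0.39 to -0.11 at days 4 and 7. The tumors of day 2, at -0.77 and -1.01, were as low as those of day 14. The difference was -0.72 ± 0.13 (adjusted p = 0.028). It was -0.47 without day 14 replicate 2 (adjusted p = 0.52), and the call was also lost without day 7 replicate 1 (-0.71, adjusted p = 0.062) and without day 7 replicate 3 (-0.73, adjusted p = 0.051). With 1 mean per mouse the call was lost as well. The mean of days 4 and 7 was -0.22 and just passed the test (adjusted p = 0.049), which places the probe among the continued changes. Among 26 alternative analyses it continued an earlier change in 8, was lower at days 1 and 2 but not at days 4 and 7 in 12, and was not called in 6. The brightest probe of UBE2C gave -0.68 and -0.83 at day 14 and -0.63 to 0.09 at days 4 and 7. Its difference of -0.60 ± 0.16 did not pass the test (adjusted p = 0.115). The remaining probe gave -0.67 and -1.09 at day 14 and did not pass it either.

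The list of mitosis and chromosome segregation had 19 measured genes of 55. By brightest probes 1 fell (PRC1) and 0 rose, and the difference was negative for 19 of 19, from -1.15 to -0.29 with a median of -0.46. MYBL2, a transcription factor of cell cycle genes, came next at -1.15 (adjusted p = 0.058), with -0.80 and -1.52 at day 14 and -0.48 to 0.40 earlier. Of DNA replication and nucleotide synthesis, 9 of 46 were measured, 1 fell (RRM2) and 0 rose, and 9 of 9 differences were negative with a median of -0.60. TYMS, which makes thymidylate, followed at -0.70 (adjusted p = 0.069). Over all 9912 probes 0.0706% were called lower and 4997 differences were negative. Over the 253 named genes 4 were called lower and 140 differences were negative. The study assigned most of these genes to its sets by their course in these tumors.

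PRC1 and RRM2 moved together, and the windows before their start sites were read for the CCAAT box and for the cell cycle homology region (CHR, letters TTTGAA), elements common in promoters of genes expressed late in the cell cycle. Both strands were searched and the motifs do not overlap each other. In the 250 bases before the start, PRC1 (GRCh38.p14, chromosome 15, start 90966040, end 90994535, minus strand) had 1 CCAAT box and 1 CHR. The nearest 150 bases are shown because they hold both elements, chr15:90994536-90994685, minus strand, 5′ to 3′, with the CCAAT box and the CHR in capitals, from RefSeq.

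PRC1: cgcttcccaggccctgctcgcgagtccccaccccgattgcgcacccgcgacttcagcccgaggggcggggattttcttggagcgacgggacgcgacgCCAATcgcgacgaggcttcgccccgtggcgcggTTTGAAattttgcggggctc

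RRM2 (chromosome 2, start 10122568, end 10211010, plus strand) has more than 1 start in RefSeq. The window of its downstream start held 3 CCAAT boxes and no CHR, and that of its upstream start held 1 CCAAT box. The letters were not limited to the cell cycle genes: of 4 windows of GFRA1, 1 held a CHR and 1 a CCAAT box, and a window of UNG, the gene that RefSeq gives for UNG2, held 1 CHR and 3 CCAAT boxes. Of 35116 promoter windows of the same length, 32% held a CCAAT box and 13.3% a CHR. A full palindromic estrogen response element (GGTCA and its inverted repeat, with 3 bases of any kind between them) was in none of the windows of the called genes that had an entry, and in 0.0399% of all windows. UBE2C, MAPT, FOXJ1 and PSCA had no entry. A match is a description of the letters and says nothing of binding.

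Beyond single genes, the 6 sets in which the study grouped its named probes moved apart in the second week. In sets 1, 3, 4 and 5 the difference was negative for every probe: 40 of 40, 24 of 24, 25 of 25 and 60 of 60. The medians were -0.49, -0.68, -0.68 and -0.53. In set 6, which holds PSCA, PIP, CAPS, FOXJ1 and UNG2, it was positive for 140 of 159 with a median of 0.52. Set 2, which holds MUC1, was split with 10 positive and 15 negative and a median of -0.16. Over all probes 4915 differences were positive and 4997 negative. The sets were built on these arrays with day 14 included, so these counts describe them and support nothing further.

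By the adjusted test 3 probes of set 1 and 2 of set 5 were lower, 6 of set 6 and 1 of set 2 were higher, and none of sets 3 and 4 was called. Set 3 had the highest share of probes without overlap between the groups, although none passed the test. Its median in the tumors of days 4 and 7 ran from -0.27 to 0.49, and it was -0.79 and -0.74 at day 14. For 79.2% of its probes the late pair lay outside the range of the earlier tumors, against 10.1% of all probes. Set 6 had a median of 0.13 to 0.46 in the earlier tumors, 0.71 and 0.81 at day 14, and no overlap of the groups for 52.2% of its probes. In set 2 the late medians of -0.46 and -0.61 lay within or just below the earlier range of -0.57 to -0.33.

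**Figure D5:**
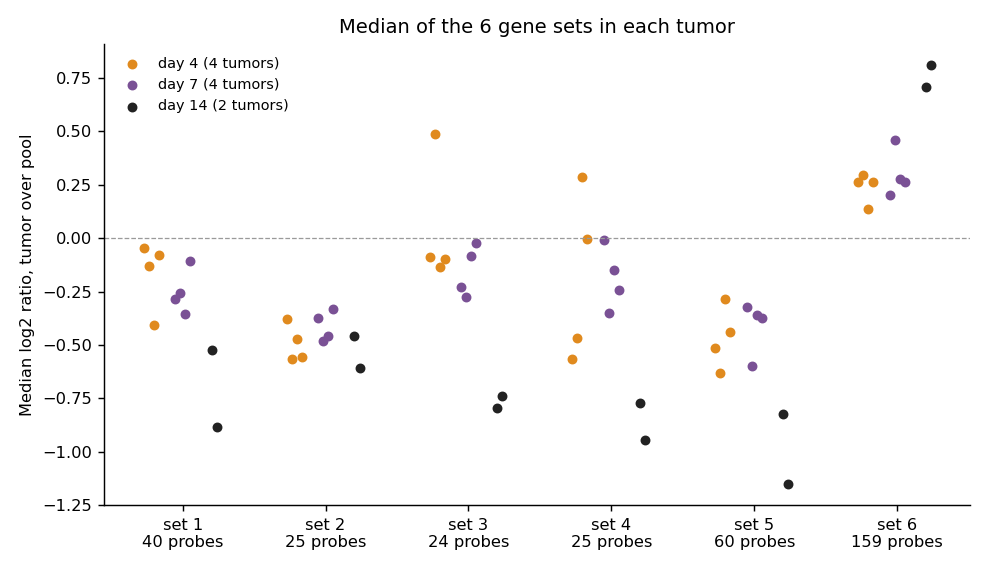
For the 6 sets (x axis), the median log2 ratio over the pool (y axis) of a set's probes, drawn as a point for each tumor of days 4, 7 and 14. The 2 tumors of day 14 lie below all earlier tumors in sets 1, 3, 4 and 5 and above them in set 6, while in set 2 they overlap with the earlier tumors.

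The probes that had moved by days 1 and 2 were followed into the second week. Those tumors are in neither group of the comparison of day 14 with days 4 and 7, though they share in its estimate of spread. Of the 373 probes that were higher at days 1 and 2, 244 (65.4%) had a positive difference between day 14 and days 4 and 7, with a median of 0.105, and 2 passed the test as higher. Of the 494 that were lower, 375 had a negative difference, with a median of -0.156, and 4 passed the test as lower while 1, MUC1, rose. Of the 9045 probes without a call at days 1 and 2, 50.3% had a positive difference. The unnamed probes, which the study did not select, gave the same order with smaller values: 60.9% of 302 were positive after an early rise and 28.4% of 384 after an early fall. Among the named probes the medians were 0.395 after an early rise and -0.442 after an early fall, in genes the study had chosen on these arrays.

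Other lists were described by their counts, beside 113 positive and 140 negative differences over the 253 named genes. Of cholesterol and fatty acid synthesis 8 of 36 genes were measured and 8 of 8 differences were negative, with a median of -0.54 and none called. SCARB1, a lipoprotein receptor that takes up cholesterol, was nearest to the threshold at -0.83 (adjusted p = 0.051), with -0.95 and -0.78 at day 14 and -0.55 to 0.36 earlier. The largest difference in this list was that of SCD, a fatty acid desaturase, at -2.09, but its values at day 4 ran from -0.59 to 2.99 and it did not pass the test (adjusted p = 0.16). MPP2, a scaffold protein of the cell membrane, fell outside the lists and gave -0.78 (adjusted p = 0.051). Of hypoxia and glycolysis 8 of 28 were measured and 0 called, with a median of -0.62. GPI, a glycolytic isomerase, had the smallest p at -0.76 (adjusted p = 0.23).

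The 3 measured transcripts of the mitochondrial genome were higher at day 14 by 0.69 to 1.08 and none passed the test. MTCYB, cytochrome b, was 1.10 and 0.60 at day 14 and -0.73 to 0.19 earlier (adjusted p = 0.077). Nuclear-encoded mitochondrial genes did not share a direction, with 4 of 8 positive and a median of 0.03. Among 14 measured genes of the luminal epithelium and cell surface, 1 rose (MUC1) and 12 differences were positive, with a median of 0.42. CD24, a small surface glycoprotein, followed at 1.01 (adjusted p = 0.073). Of 11 measured secretory and apocrine products 2 rose (PSCA and PIP), while 6 had a negative difference and the median was -0.40.

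No member was called in the lists of insulin and IGF signalling (6 measured, median -0.01), immediate early genes (5 measured, median -0.42), apoptosis and stress (7 measured, median 0.35), lysosome and proteolysis (7 measured, median 0.46), adhesion, junction and actin (21 measured, median 0.33), and RNA splicing and processing (11 measured, median 0.27). EGR3, given above, was the nearest to the threshold among the immediate early genes. In other lists of this group the nearest were PHLDA2, an imprinted growth-restraining gene, at -0.64 (adjusted p = 0.077), NEDD4L, a ubiquitin ligase, at 0.84 (adjusted p = 0.073) and MYLK, the myosin light chain kinase, at 0.59 (adjusted p = 0.094). Of ERBB and growth factor signalling 16 of 18 were measured and 1, GFRA1, fell, with a median of 0.21. TRAFD1, at 0.65 (adjusted p = 0.076), was the only measured gene of the interferon response, and no ribosomal protein gene was named.

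The labelled cell type could not be checked, because a ratio to a pool of tumors of the same line shows change and not identity. Of 13 markers of luminal breast epithelium 3 were named on the arrays: MUC1, TFF1 and TFF3. Their mean log2 ratio was -1.24 and -0.79 at day 14 and -1.29 to -0.73 earlier. That mean averages opposite differences: 1.45 for MUC1, and -0.996 for TFF1 and -0.82 for TFF3, which did not pass the test. Of 21 markers of fibroblasts and extracellular matrix 3 were measured (FN1, LGALS1 and MGP). All 3 were lower at day 14 by 0.49 to 0.93 and none passed the test. MGP, an inhibitor of calcification in matrix, was nearest to the threshold (-0.93, adjusted p = 0.058). The mean of these 3 markers was -1.08 and -0.55 at day 14 and -0.39 to 0.10 earlier, and its part in the falls described above was not tested. RNA of the mouse host can bind to human probes, which these data do not separate. No marker of endothelium, macrophages and leukocytes, adipocytes or keratinocytes was named on the arrays. The mean of 3 hepatocyte markers (ALB, MAT1A and SERPINA1) was below the pool in all 10 tumors, at -2.82 and -2.40 at day 14 and -3.08 to -0.84 earlier. ALB had the largest difference of the 3, at -2.46, but its groups overlapped and it did not pass the test (adjusted p = 0.268). SERPINA1 is also in the list of estrogen-induced genes used here. The mean of the 2 hemoglobin entries, each read by its brightest probe, was -1.38 and -0.66 against -2.08 to 1.16. Myoglobin, the only measured muscle marker, was 0.51 and 0.93 against 0.17 to 0.57. No marker of another cell type passed the test.

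The arrays of day 14 were somewhat dimmer. The median signal over local background per tumor was 2.74 and 3.54 at day 14 and 3.18 to 5.48 at days 4 and 7 (exact permutation test, two-sided, p = 0.0889 over 45 arrangements, of which 0.0444 is the smallest possible). The part of this difference in the results was not tested. Each of the 12 named probes gave the same direction from the forward arrays alone and from the dye-swap arrays alone. Examples are 3.43 and 2.99 for PSCA, -1.83 and -1.80 for GFRA1 and -0.86 and -0.78 for PRC1. The probes were picked by the mean of both orientations, so a shared direction is weak evidence. Of the 12, 7 kept their call on forward arrays alone and 3 on dye-swap arrays alone. Over all probes, the 2 orientations of a tumor correlated from -0.28 (day 7 replicate 1) to 0.47 (day 14 replicate 2).

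Of the 10 probes without a gene name, 8 changed in the second week only. The largest rise among them was that of probe 1440913_A at 1.67 (adjusted p = 0.00041), with 1.51 and 2.28 at day 14 and -0.11 to 0.60 earlier. Probe 758143_A fell by 0.77 in the second week only, from between -0.04 and 0.16 to -0.62 and -0.76. Its tumor channel at day 14 was only 1.72 to 2.24 times its local background. The median pool signal of the 10 probes at day 14 ran from 1.80 (376637_A) to 34.1 (186993_A) times local background. It was near 1.9 for 41811_A and 45138_A and 5.6 for 1440913_A. With a normexp offset of 16, 16 of the 22 probes kept their call, all 12 named ones among them, so most unnamed ones lost it. Probe 109128_A, which continued an earlier fall, rested on a single dye orientation: its difference was -0.09 on the forward arrays and -1.99 on the dye-swap arrays. Probe 186993_A, which rose, gave 0.26 on the forward arrays and 1.28 on the dye-swap arrays.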

How the data were processed

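RNA of each tamoxifen-treated tumor was hybridized with a common E2-only pool to 2-color cDNA arrays. The authors deposited scanner files with spot and local background intensity for each dye, and a table of log2 ratios made with limma after background correction, loess and quantile normalization (per the study's methods; the version is not given in the sources used here). The deposited intensity values were used, and the authors' log2 table served as an alternative.

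Spot intensities were corrected with normexp (offset 50), and spots marked 0 were dropped. Ratios were normalized by loess within and by quantiles between arrays, turned to tumor over pool and averaged to 1 value per tumor, with limma 3.58.1 in R 4.3.3. Each day had a mean in 1 fit over all 16 tumors, with mouse as a random block (correlation 0.0224, statmod 1.5.0), and differences were tested with eBayes and Benjamini-Hochberg adjustment over 9912 probes. A call is an adjusted p under 0.05. The scripts were tested on simulated data. The fit has 11 residual degrees of freedom, and the 2 arrays for each of 2 tumors limit the precision of day 14.

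The members, lists and tests were chosen with earlier results of these data known. A gene is represented by its brightest probe. Named were the 10 largest rises and 10 falls (all those called, then the smallest p, given as not passing), the 5 smallest p of each class of change, leading members of each gene list, called markers, and genes the study names. Probe names were taken from the study's additional list. Of its 253 symbols, 217 were current in RefSeq, 35 were older names and 1 was not found.

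The replicate numbers were not taken as pairs, because the animal numbers in the labels differ between the days. The deviations of replicates 1 and 2 correlated at 0.167 between days 14 and 4, at -0.0422 between days 14 and 7, and at -0.0418 between days 4 and 7. These values rest on 1 difference per day and cannot decide whether the numbers pair tumors. Tumors of the same mouse share a host, and the p-values measure the spread between these tumors. Alternatives were background correction, normalization, spot marks, intensity filter, the authors' table, treatment of mice, samples in the fit, replicate block, array weights, the left-out array, a trended spread, dye orientation, the methods' threshold and leaving out each tumor.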

Additional observations from a re-analysis of the deposited data

Results flagged for a closer look

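In 24 groups of 4 tumors (12 named probes at days 4 and 7), the highest or lowest value was compared with the others, and 1 stood apart. FOXJ1 on its brightest probe was 0.188 in day 4 replicate 5, whereas the other 3 tumors of day 4 were between 0.91 and 1.02, so that the gap made up 0.872 of the whole range. Chance flags about 1 in 20 such groups. The tumor lay on the side away from day 14, and its other FOXJ1 probe gave 0.34 beside 0.59 to 0.94.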

How the results depend on the processing

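No named gene reversed its direction under any of the 27 alternatives, and PSCA kept its call under all of them. UNG2 lost its call in 1 of them, CAPS, FOXJ1 and PIP in 2, MUC1 in 3, RRM2 in 5, GFRA1 and PRC1 in 6, and MAPT and UBE2C in 7, the loss of day 14 replicate 2 being common to these 10. With 1 mean per mouse 15 probes differed, 13 of them among the 22 reported, and 8 of the 12 named probes kept their call. GFRA1, MAPT, PRC1 and UBE2C lost theirs there. The counts were less stable, and the cause was not tested.

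The count of probes that differed between day 14 and days 4 and 7, 22 as reported, was 56 with no background correction, 69 with plain subtraction, 13 without normalization between arrays, 45 among probes above the lowest intensities, 115 in the authors' table, 9 with only the tumors of days 4, 7 and 14 (fewer samples in the fit), 273 with array weights, 78 with a trended spread, 9 on dye-swap arrays and 300 at 1.5-fold and an unadjusted p of at most 0.05. Leaving out a tumor gave 1 (without day 14 replicate 2) to 74 (without day 7 replicate 2).

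The counts of continued, second-week, early-and-late and opposite changes, in that order, were 17, 22, 15 and 2 with no background correction, 23, 25, 19 and 2 with subtraction, 57, 174, 38 and 4 with array weights, 28, 29, 19 and 2 with a trended spread, and 3, 6, 0 and 0 on dye-swap arrays. The first 3 were 23, 67 and 24 in the authors' table and 13, 266 and 20 at the threshold of 1.5-fold. Above the lowest intensities the continued, early-and-late and opposite changes numbered 18, 11 and 2. The second-week changes were 7 with an offset of 16 and 4 without normalization between arrays. Continued and early-and-late changes were 3 and 1 with 1 mean per mouse and 2 and 10 with the left-out array used, and early-and-late changes were 0 on forward arrays. Leaving out a tumor gave 0 to 18, 1 to 35, 0 to 20 and 0 to 2.

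Days 4 and 7 against the pool gave 230 calls with 1 mean per mouse, 113 with the left-out array used, 2868 on forward and 707 on dye-swap arrays, 47 at the 1.5-fold threshold, and 274 to 516 without a tumor. Days 1 and 2 gave 385 with 1 mean per mouse, 2214 on forward arrays, 118 at the 1.5-fold threshold and 685 to 1096 without a tumor. Day 7 against day 4 gave 63 at the 1.5-fold threshold and 0 to 1 without a tumor. With the replicate number as a block, which shares only a number here, 21 probes differed at day 14, of which 15 were among the 22 reported and 11 among the 12 named, with 322 calls for days 1 and 2 and 6 early-and-late changes.

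The median signal was 2.74 to 5.48 times the local background in these tumors, and its part in these counts was not tested. Every difference is limited by the 2 tumors of day 14.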

Other observations

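Day 7 replicate 2 lay nearer to day 14 than its 3 companions for several genes: IGFBP5 stood at 2.97 beside 0.44 to 1.28, GFRA1 at -1.71 beside -0.48 to -0.04, PIP at 0.96 beside 0.06 to 0.65 and TFF3 at -1.93 beside -1.001 to -0.79. For PSCA (0.31) and MUC1 (-0.30) it lay within the range of the others, and for FOXJ1 (0.25) it lay below them, on the side away from day 14. These genes were picked out after their values were seen, and the difference between this tumor and the others was not tested.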
